A study of Mus musculus with 8 samples.

Results

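Septin genes stood in the deposited mouse expression table under date-like row names, number-Sep, as happens when a spreadsheet program reads a symbol such as Sept2 as a day of September. Reading 01-Sep as Sept1, 02-Sep as Sept2 and so on gave 10 rows of 49492, with the numbers 1, 2, 3, 5, 6, 7, 8, 9, 10 and 11, and each of these names stood on 1 row. The numbers 4, 12 and 14 were also present. Those 3 rows had under 1 CPM (reads per 1000000 reads of the library, as scaled by the authors) in every sample, whereas each of the 10 rows reached 1 CPM in at least 2 samples. The 10 members were thus chosen by name and selected on level, so levels are given as a description, with no test. Sept3 was nearest to this limit from above, at 1 CPM or more in 4 of 8 samples, all of them starved, and Sept4 was nearest from below, at 0.138 to 0.605 CPM. The table also held 13 rows in the form number-Mar, which are not septins.

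RNA-seq was done on polyA RNA from mouse embryonic fibroblasts (MEFs) that carried floxed Pontin alleles, had been immortalized by the 3T3 protocol and had lost their own Pontin to Cre. The cells stably expressed lentiviral, Flag-tagged Pontin, an AAA+ ATPase also named Ruvbl1, in the WT form or in the RA form, in which a pair of arginines methylated by CARM1 were replaced by alanine. Each form was carried by 1 stably expressing cell line, so that Pontin form and cell line cannot be told apart. Each line was kept in normal medium or in glucose starvation medium, which is glucose-free DMEM with dialyzed serum, with 2 samples in each of the 4 groups. The starvation time of these samples is not given in the sources used here, and a general statement that experiments were repeated independently does not say whether the 2 samples of a group were separate cultures, so p-values measure only the spread between these samples. Read totals recovered from the table ran from 43205841 to 56363034 per sample, and 3 reads corresponded to 0.0548 to 0.069 CPM. The Ruvbl1 row averaged 28.0 and 28.2 CPM in normal and starved WT and 34.4 and 44.0 CPM in RA, a value that does not separate the WT sequence from the RA sequence. All 9 fibroblast markers examined averaged at least 1 CPM, with a summed level of 9918 to 10246 CPM per sample in normal medium, 5313 to 5406 CPM in starved WT and 7042 to 7059 CPM in starved RA. Means of Col1a1, Col1a2, Col3a1, Pdgfra, Pdgfrb and Vim were lower under starvation in both lines. Thy1 averaged 254 CPM in normal and 185 CPM in starved WT, and 278 and 282 CPM in RA. Dcn averaged 5.90 and 7.44 CPM in WT and 13.5 and 34.9 CPM in RA. For Fn1 these means were 2357 and 2413 CPM in WT and 2370 and 3173 CPM in RA. The summed level of 3 endothelial markers, mostly Kdr, was 1.90 to 3.09 CPM in normal medium, 6.37 to 6.60 CPM in starved WT and 5.45 to 5.86 CPM in starved RA. Pecam1 and Cdh5, the other endothelial markers, averaged 0.390 and 0.295 CPM in normal WT and 0.0693 and 0.021 CPM in starved WT. In RA they averaged 0.154 and 0.131 CPM in normal medium and 0.142 and 0.0783 CPM under starvation, so the sum rose through Kdr. The sum over 3 epithelial markers was 1.16 to 1.25 CPM in starved RA, mostly Cdh1, and 0.310 to 0.564 CPM in the other groups. Epcam was 0.046 and 0.155 CPM in normal RA and 0.0783 and 0 CPM in starved RA, and Krt14 was at 0 in all 8.

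Septins are GTP-binding proteins that assemble end to end into rods and then into filaments and rings on membranes, actin bundles and microtubules. They are sorted by sequence into the SEPT2, SEPT3, SEPT6 and SEPT7 groups, and a rod takes its subunits from these groups, with SEPT7 as the shared subunit. In fibroblasts they are known for building the cleavage furrow and midbody of dividing cells and for lining actin stress fibres.

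Promoter windows from RefSeq (GRCm38.p6) matched 6 of the 10 septins, Sept2, Sept7, Sept8, Sept9, Sept10 and Sept11, at 12 start sites. Sept1, Sept3, Sept5 and Sept6 had no entry. The windows printed here are those of Sept2, Sept7, Sept9 and Sept11. They are the 250 bases upstream of the first listed start site, 5′ to 3′ and under their RefSeq names (Septin2 and so on). All of these septins fell in both lines, as did Sept5, and Sept11 had the highest level per kilobase. Capitals mark matches on either strand to the motifs searched, which were CACGTG (the core of the E-box bound by TFEB), GTAAACA (FOXO), TTTCGCGC (E2F), GGGCGG (GC box), CCAAT and TATAAA. None of these motifs holds another.
Septin2 (chr1:93478743-93478992, + strand): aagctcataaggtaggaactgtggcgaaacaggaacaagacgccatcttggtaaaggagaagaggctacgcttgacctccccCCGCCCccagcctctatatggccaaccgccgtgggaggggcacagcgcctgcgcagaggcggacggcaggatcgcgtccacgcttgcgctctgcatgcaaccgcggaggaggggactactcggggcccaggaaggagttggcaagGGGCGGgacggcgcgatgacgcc
Septin7 (chr9:25251741-25251990, + strand): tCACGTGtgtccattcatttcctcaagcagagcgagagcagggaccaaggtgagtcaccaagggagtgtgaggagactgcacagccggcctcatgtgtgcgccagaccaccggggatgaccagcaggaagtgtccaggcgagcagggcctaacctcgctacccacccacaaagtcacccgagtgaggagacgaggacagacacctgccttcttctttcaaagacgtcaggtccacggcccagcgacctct
Septin9 (chr11:117199411-117199660, + strand): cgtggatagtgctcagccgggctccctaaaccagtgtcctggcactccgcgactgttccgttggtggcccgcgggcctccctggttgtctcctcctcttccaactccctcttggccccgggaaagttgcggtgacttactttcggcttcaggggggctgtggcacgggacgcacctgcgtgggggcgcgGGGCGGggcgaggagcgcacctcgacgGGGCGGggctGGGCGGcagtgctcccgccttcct
Septin11 (chr5:93093166-93093415, + strand): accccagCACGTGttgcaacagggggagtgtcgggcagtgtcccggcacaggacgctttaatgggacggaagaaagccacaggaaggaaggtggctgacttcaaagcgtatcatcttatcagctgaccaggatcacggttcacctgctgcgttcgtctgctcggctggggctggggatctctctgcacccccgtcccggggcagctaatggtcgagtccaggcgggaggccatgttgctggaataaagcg
Among the printed windows, that of Sept2 held 2 GC boxes and that of Sept9 held 3, while those of Sept7 and Sept11 each held 1 CACGTG. The printed window of Sept7 ends at 25251990, ahead of the gene start in GENCODE M21 at 25252439. The other window of Sept7 (chr9:25252642-25252891) held no match to the motifs searched. Over the 12 septin windows, GGGCGG was in 6, CACGTG in 2 and CCAAT in 1, and the FOXO, E2F and TATAAA motifs were in 0. These windows are not independent, because the 2 of Sept2 overlap and Sept9 has 4. By gene, with a match in any of its windows, GGGCGG was in 4 of 6, CACGTG in 2 and CCAAT in 1. These counts by gene have no matching background, because the shares that follow are of single windows. Of 32851 mouse promoter windows of this length, 32.7% held GGGCGG, 6.02% held CACGTG, 33.8% held CCAAT, 12.4% held TATAAA, 3.17% held GTAAACA and 0.256% held TTTCGCGC. The GC content of the printed windows was 64.8% for Sept2, 59.6% for Sept7, 69.6% for Sept9 and 60% for Sept11, beside a median of 52.4% over all windows. A match of letters is a description and not a site of binding.

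Glucose starvation changed the septins unevenly. Sept3 entered the test only through its starved samples, so its responses are given without a test and the counts cover the other 9. In Pontin WT MEFs, 2 septins rose (Sept1 and Sept6), 6 fell (Sept2, Sept5, Sept7, Sept8, Sept9 and Sept11) and Sept10 did not pass the test. In Pontin RA MEFs, all 9 passed, with Sept6 and Sept8 rising and the other 7 falling. Starvation effects were large over the whole table, where limma called 78.6% of 16232 tested rows in WT (39.3% higher and 39.2% lower) and 68.7% in RA (35.0% higher and 33.7% lower), so that a high share of called rows is not particular to the septins. Because whole cultures were measured, fewer cells of a kind and less RNA per cell cannot be told apart. Values of the starved and the normal samples overlapped for none of the 9 in either line, and 88.7% of tested rows in WT and 83.3% in RA had no overlap. The median difference over the 9 septins was -0.13 in WT and -0.41 in RA on the log2(CPM + 1) scale, beside medians of 0.0049 and 0.013 over all tested rows. The starvation response differed between the lines, by the interaction of genotype and medium, for 6 of 9 septins (3 with a higher and 3 with a lower response in RA), where 50.6% of all tested rows passed (24.5% higher and 26.1% lower). Its median was 0.035 over the 9 septins and -0.011 over all tested rows. Differences are log2 of (CPM + 1) with the standard error (SE), tested by limma with Benjamini-Hochberg (BH) adjustment over all tested rows.

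**Figure D1:**
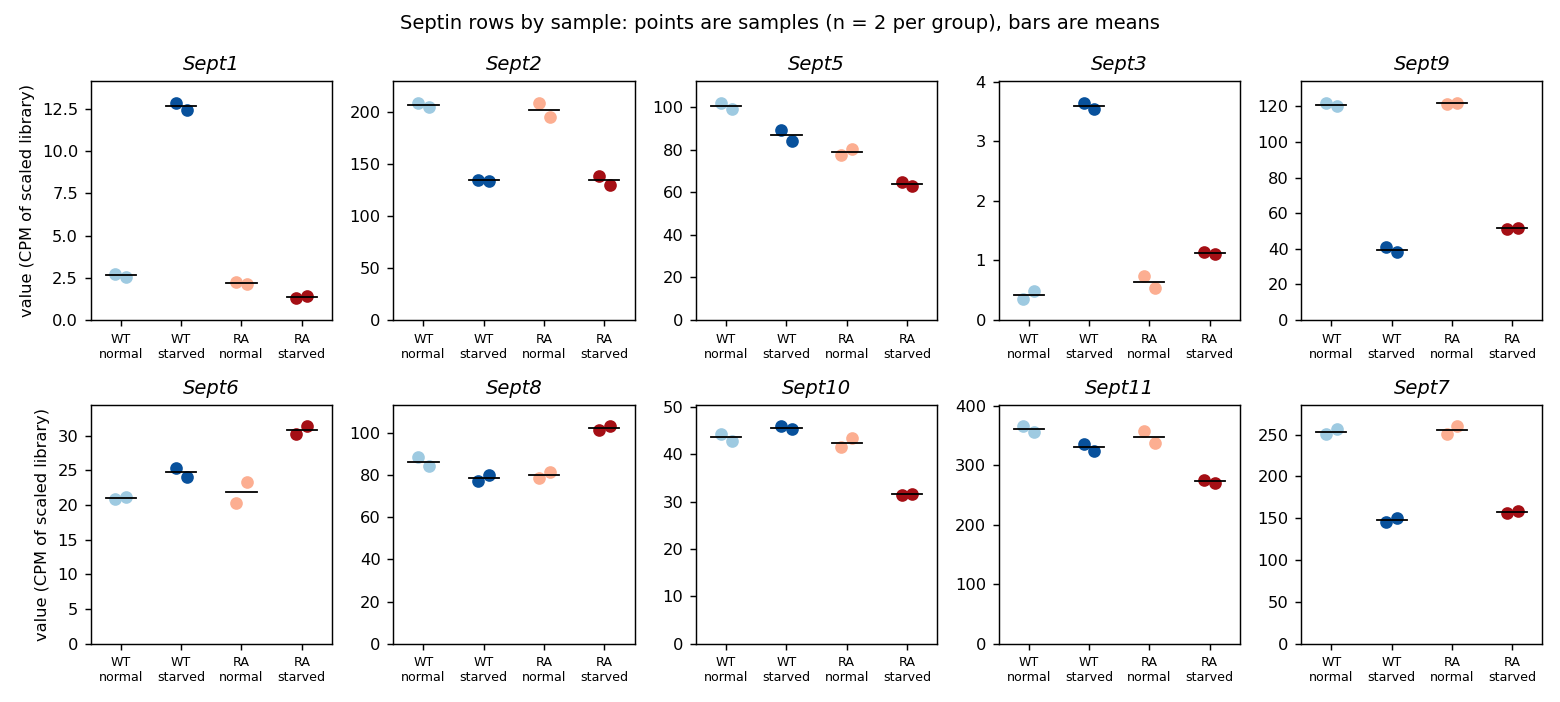
Deposited values (CPM of a scaled library, vertical axes from 0, a scale per panel) of the 10 septins in the 4 groups, each point a sample and each bar the mean of 2 samples. Sept9 drops from about 121 CPM to 39.5 CPM in starved WT and 51.4 CPM in starved RA, whereas Sept1 rises only in WT, to 12.7 CPM.

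In the SEPT2 group, Sept1 (row 01-Sep), a septin best known from lymphocytes (gene at chr7:127214447-127233130, minus strand, GRCm38), gave the largest difference between the responses of the lines among the 10 septins. It was 2.72 and 2.56 CPM in WT in normal medium and 12.9 and 12.4 CPM in starved WT, from 614 and 681 reads. In RA it was 2.23 and 2.11 CPM in normal medium and 1.33 and 1.45 CPM under starvation. Starved WT thus stood above every other sample and starved RA below every other sample. Sept1 rose by 1.91 ± 0.11 in WT, a 4.80-fold ratio of means (limma, BH-adjusted p = 8.6e-11), and fell by 0.41 ± 0.11 in RA, to 0.640 of its level (BH-adjusted p = 0.00459). The difference between these responses was -2.32 ± 0.16 (BH-adjusted p = 5.11e-09), and under starvation the RA level was 0.110 of the WT level (-2.52 ± 0.11, BH-adjusted p = 6.97e-12). Exons of Sept1 share 70 bases, 2.53% of its exon length, with Zfp553 on the opposite strand, and the library kit does not mark strand. Zfp553 was 16.3 and 16.7 CPM in normal and 29.0 and 27.1 CPM in starved WT, and 14.2 to 17.5 CPM in the 4 RA samples, so it was also highest in starved WT, and its part in the Sept1 result was not tested.

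The summed level of 5 immune cell markers was, like Sept1, highest in starved WT, at 5.02 to 6.12 CPM beside 2.48 to 3.16 CPM in the other 6 samples. In starved RA, where Sept1 was lowest, the sum was 2.54 to 2.62 CPM, within the range of normal RA (2.48 to 3.16 CPM). Of the 5 markers, Cd68, a lysosomal glycoprotein of macrophages that fibroblasts also express, alone averaged over 1 CPM across the 8 samples, at 4.51 and 4.13 CPM in starved WT and 1.93 to 2.67 CPM in the other 6. The B cell marker Cd79a was 1.53 and 0.840 CPM in starved WT, 0.217 and 0.363 CPM in normal WT and 0.196 to 0.552 CPM in RA, so it too was highest in starved WT. The macrophage marker Adgre1 was at most 0.165 CPM. The leukocyte marker Ptprc was at 0 in 7 samples and at 0.0392 CPM in 1 sample of starved RA, and the T cell marker Cd3e was at 0 in all 8. The part of Cd68 and Cd79a expressing cells in the Sept1 result was not tested.

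Sept2 (row 02-Sep), the founding member of the group and a core subunit of fibroblast rods (chr1:93478964-93510260, plus strand), fell in both lines. It was 208 and 205 CPM in normal and 134 and 134 CPM in starved WT, and 209 and 195 CPM in normal and 139 and 129 CPM in starved RA. Both starved groups lay below all samples in normal medium. Sept2 fell by 0.62 ± 0.043 in WT (BH-adjusted p = 6.85e-10, ratio of means 0.649) and by 0.58 ± 0.043 in RA (BH-adjusted p = 2.77e-09, ratio 0.665). The responses differed by 0.035 (95% interval -0.095 to 0.16, BH-adjusted p = 0.663).

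Sept5 (row 05-Sep) binds syntaxin at sites of exocytosis (chr16:18620502-18629954, minus strand). With the values as deposited, it was the only septin to pass the test between the lines in normal medium. It was 102 and 98.9 CPM in normal and 89.2 and 84.2 CPM in starved WT. RA gave 77.6 and 80.1 CPM in normal medium and 64.9 and 62.7 CPM under starvation, each below the WT samples of the same medium. The RA level was 0.785 of WT in normal medium (-0.35 ± 0.045, BH-adjusted p = 6.83e-05) and 0.736 of WT under starvation (-0.44 ± 0.045, BH-adjusted p = 2.56e-07). Under starvation Sept5 fell by 0.21 ± 0.045 in WT (BH-adjusted p = 0.000388) and by 0.30 ± 0.045 in RA (BH-adjusted p = 1.4e-05), and the responses differed by -0.090 (95% interval -0.22 to 0.043, BH-adjusted p = 0.249). Sept5 shares 1902 exon bases, 48.6% of its exon length, with Gp1bb on the same strand, and 2206 with the overlapping gene model Gm49601, so reads there could have been counted for another gene, and the Sept5 level is uncertain. Gp1bb was 25.8 and 23.4 CPM in normal and 21.9 and 20.6 CPM in starved WT, and 17.5 and 20.2 CPM in normal and 15.1 and 15.8 CPM in starved RA, in the same order of groups as Sept5.

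In the SEPT3 group, Sept9 (row 09-Sep), which can cap or join rods and is required for the last step of cytokinesis (chr11:117199661-117362325, plus strand), fell the most of the 10. It was 122 and 119.9 CPM in normal and 40.8 and 38.3 CPM in starved WT. In RA it was 121 and 122 CPM in normal medium and 51.3 and 51.6 CPM under starvation. The normal samples of both lines lay within about 2 CPM of each other, while starved RA stood above starved WT. Sept9 fell by 1.59 ± 0.044 in WT, to 0.327 of its level (BH-adjusted p = 2.07e-15), and by 1.23 ± 0.044 in RA, to 0.423 (BH-adjusted p = 1.9e-13). The fall was smaller in RA by 0.36 ± 0.062 (BH-adjusted p = 0.000131), and the starved RA level was 1.30 times the WT level (BH-adjusted p = 1.37e-06).

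Sept3 (row 03-Sep), a septin known mainly from neurons (chr15:82274893-82294574, plus strand), was the scarcest of the 10. It was 0.348 and 0.484 CPM in WT in normal medium, from 16 and 24 reads, and 3.65 and 3.54 CPM in starved WT, from 174 and 194 reads. RA gave 0.736 and 0.543 CPM in normal medium and 1.14 and 1.12 CPM under starvation. Starved WT stood above all other samples, and starved RA above both groups in normal medium. The mean in starved WT was 8.65 times that in normal WT, and in RA the ratio was 1.76. On the log2(CPM + 1) scale the difference was 1.70 in WT and 0.38 in RA. The added 1 CPM shrinks such low values, and edgeR on the recovered reads gave a log2 fold change of 3.06 in WT. These values carry no test, because the row passed the filter on low values only through the samples in which it was high. A sum over 5 neuron markers went the other way. It was 74.2 to 84.2 CPM in normal medium, 11.8 to 12.1 CPM in starved WT and 22.1 to 22.2 CPM in starved RA. Most of this sum was the tubulin Tubb3. Stmn2 averaged 3.13 CPM in normal and 1.70 CPM in starved WT, and 3.45 and 1.87 CPM in RA. Syt1 was 0.256 to 1.13 CPM over the 8 samples. Rbfox3 and Snap25, which mark neurons, were at 0 to 0.0969 CPM in all 8 samples.

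The 4 members of the SEPT6 group, which lie next to SEPT7 in rods and can replace each other there, moved in different directions. Sept8 (row 08-Sep, chr11:53519257-53549565, plus strand) was 88.5 and 84.3 CPM in normal and 77.2 and 80.2 CPM in starved WT, and 78.6 and 81.6 CPM in normal and 102 and 103 CPM in starved RA. Starved RA was thus above every other sample, and starved WT was below normal WT. Sept8 fell by 0.13 ± 0.044 in WT (BH-adjusted p = 0.0103) and rose by 0.35 ± 0.044 in RA (BH-adjusted p = 1.8e-06), with a difference between responses of 0.48 ± 0.062 (BH-adjusted p = 6.31e-06). The fall in WT was lost without replicate 1 of normal WT (BH-adjusted p = 0.118) or replicate 1 of starved WT (0.0817).

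Sept10 (row 10-Sep, chr10:59141627-59221847, minus strand) was 44.4 and 42.8 CPM in normal and 45.8 and 45.4 CPM in starved WT, and 41.5 and 43.3 CPM in normal and 31.3 and 31.7 CPM in starved RA. The starved RA samples were the lowest by about 10 CPM, and the other 6 samples lay between 41.5 and 45.8 CPM. The difference in WT was 0.065 (95% interval -0.043 to 0.17, BH-adjusted p = 0.252), whereas Sept10 fell by 0.42 ± 0.051 in RA, to 0.743 of its level (BH-adjusted p = 1.52e-06). The responses differed by -0.48 ± 0.072 (BH-adjusted p = 3.52e-05).

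Sept6 (row 06-Sep, chrX:36911326-36991794, minus strand) was 20.8 and 21.1 CPM in normal and 25.4 and 24.0 CPM in starved WT, and 20.2 and 23.4 CPM in normal and 30.2 and 31.3 CPM in starved RA. It was highest in starved RA, and the normal samples of both lines overlapped. Sept6 rose by 0.23 ± 0.071 in WT (BH-adjusted p = 0.00805) and by 0.48 ± 0.071 in RA (BH-adjusted p = 1.34e-05). The rise in WT did not pass without replicate 1 of starved WT (BH-adjusted p = 0.0618). The larger rise in RA, by 0.25 ± 0.10, was near the threshold (BH-adjusted p = 0.0445) and did not pass without either normal WT sample (BH-adjusted p = 0.0783 and 0.0974), replicate 2 of starved WT (0.13), replicate 1 of normal RA (0.202) or either starved RA sample (0.0676 and 0.132).

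Sept11 (row 11-Sep, chr5:93093437-93176447, plus strand) had the highest CPM of the family, at 365 and 355 CPM in normal and 336 and 324 CPM in starved WT, and 357 and 338 CPM in normal and 276 and 271 CPM in starved RA. Starved RA lay below every other sample. It fell by 0.13 ± 0.039 in WT (BH-adjusted p = 0.0079) and by 0.35 ± 0.039 in RA, to 0.786 of its level (BH-adjusted p = 5.86e-07), a difference of -0.22 ± 0.055 (BH-adjusted p = 0.00326). The smaller fall in WT did not pass without replicate 1 of normal WT (BH-adjusted p = 0.0793) or replicate 2 of starved WT (0.0669).

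Sept7, the only member of the SEPT7 group (row 07-Sep, chr9:25252439-25308571, plus strand), was 251 and 257 CPM in normal and 145 and 150.1 CPM in starved WT, and 250.3 and 259.6 CPM in normal and 157 and 158 CPM in starved RA. The normal samples of both lines overlapped, and all starved samples were lower. Sept7 fell by 0.78 ± 0.038 in WT, to 0.582 of its level (BH-adjusted p = 4.61e-12), and by 0.69 ± 0.038 in RA, to 0.617 (BH-adjusted p = 4.82e-11). The responses differed by 0.085 (95% interval -0.028 to 0.20, BH-adjusted p = 0.197). A stretch of 245 exon bases of Sept7 is shared with the pseudogene Gm48272 on the opposite strand.

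**Figure D2:**
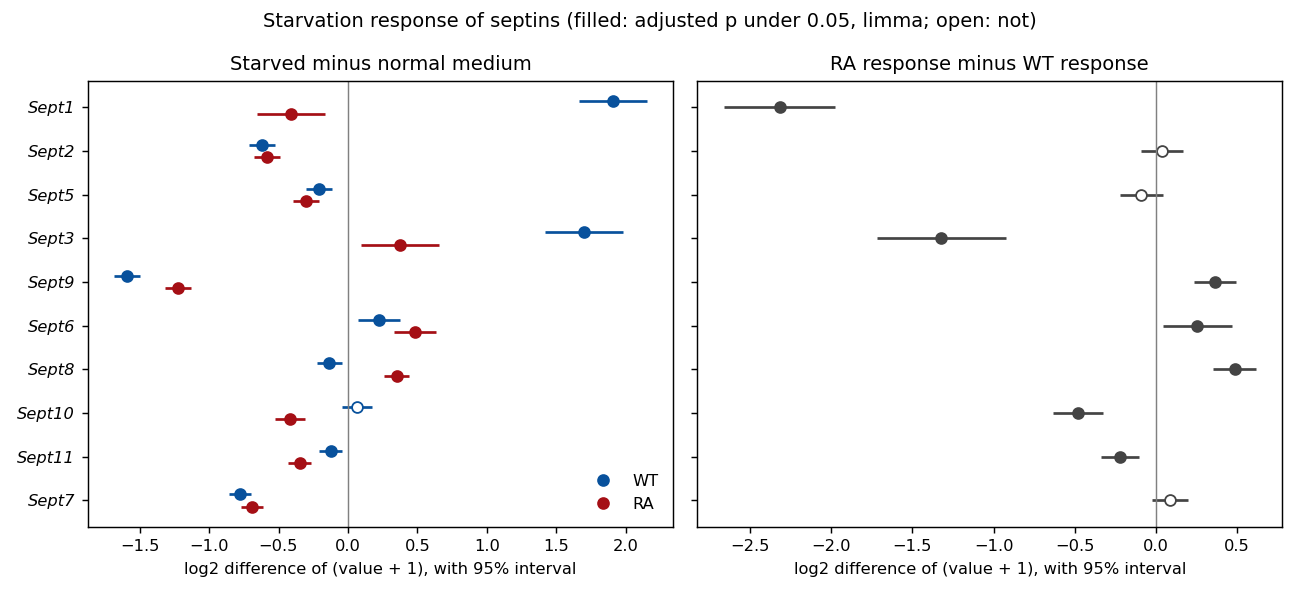
Starvation response of each septin as the log2 difference of (CPM + 1) with its 95% interval in WT and RA (left) and the difference of these responses (right), filled points passing a BH-adjusted p of 0.05 in limma (Sept3 entered the fit only through starved samples). Sept1 lies at 1.91 in WT and -0.41 in RA, while Sept2, Sept5 and Sept7 have intervals for the difference that include 0.

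In normal medium, Sept5 alone passed among the 9 septins other than Sept3 in RA against WT, beside 9.63% of all tested rows (6.68% higher and 2.95% lower in RA), and the BH-adjusted p of the other 8 ran from 0.134 to 0.924. The median difference was -0.038 over the 9 septins and 0.0075 over all tested rows. Values of WT and RA did not overlap for Sept1, Sept5 and Sept8, 3 of 9, where 53.2% of tested rows did not overlap. In this comparison the direction of calls over the whole table depended on the scaling, with 69.4% of called rows higher in RA as deposited, 58.5% after median-ratio scaling, 52.6% after quantile normalization and 40.4% after scaling to total reads. Sept5 was lower in RA in each of them.

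Under glucose starvation, 8 of the 9 septins other than Sept3 differed between the lines, with 4 higher in RA (Sept6, Sept7, Sept8 and Sept9) and 4 lower (Sept1, Sept5, Sept10 and Sept11), beside 62.9% of all tested rows (30.8% higher and 32.1% lower). The same 8 had groups that did not overlap, where 81.5% of tested rows did not. The median difference was -0.0018 over the 9 septins and -0.0081 over all tested rows. Sept8 in starved RA was 1.30 times the WT level (0.38 ± 0.044, BH-adjusted p = 1.11e-06) and Sept6 1.25 times (0.31 ± 0.071, BH-adjusted p = 0.00131). Sept3, given without a test, stood at 0.313 of the WT level. Sept10 was 0.691 (-0.52 ± 0.051, BH-adjusted p = 1.5e-07) and Sept11 0.827 (-0.27 ± 0.039, BH-adjusted p = 1.3e-05) of the WT level. Sept7 was higher by 0.093 ± 0.038 (BH-adjusted p = 0.041), which did not pass without either normal WT sample (BH-adjusted p = 0.0575 and 0.0576), replicate 1 of starved WT (0.213) or either starved RA sample (0.106 and 0.161). For Sept2 the difference was -0.0018 (95% interval -0.094 to 0.090, BH-adjusted p = 0.975).

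To compare levels between septins, CPM was divided by the exon length of each gene in GENCODE M21 (GRCm38), an annotation that may differ from that of the counting. Sept5 shares 48.6% of its exon length with Gp1bb, so its level per kilobase and its place in the order are uncertain. Sept11 was highest per kilobase in all 4 groups, from 28.8 CPM per kb in starved RA to 38.0 CPM per kb in normal WT. In normal WT it was followed by Sept2 (25.9 CPM per kb) and Sept5 (25.7), whose samples overlapped, then by Sept7 (21.8), Sept9 (16.0), Sept8 (14.2) and Sept10 (14.01), the latter pair again overlapping, and by Sept6 (2.12), Sept1 (0.955) and Sept3 (0.0628 CPM per kb). Normal RA gave a similar order, with Sept7 (21.9 CPM per kb) above Sept5 (20.1) and overlapping samples for Sept10 (13.6) and Sept8 (13.2). In starved WT, Sept5 (22.1 CPM per kb) came before Sept2 (16.8), Sept10 (14.7) before Sept8, and Sept8 (12.9) overlapped with Sept7 (12.7), while Sept1 (4.58) passed Sept6 (2.50) and neared Sept9 (5.23 CPM per kb). In starved RA, Sept8 (16.8 CPM per kb), Sept2 (16.8) and Sept5 (16.3) were next after Sept11, and neighbours among these 3 overlapped.

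The summed septin level per kilobase was 159 in normal and 127 in starved WT, and 149.97 in normal and 113 in starved RA, in CPM per kb. The SEPT6 group held 43.1% of this sum in normal and 51.2% in starved WT (SD 0.38 and 0.12, n = 2), and 43.8% and 52.1% in RA (SD 0.10 and 0.48, n = 2). The SEPT3 group, nearly all of it Sept9, took 10.1% in normal and 4.54% in starved WT, and 10.8% and 6.17% in RA. SEPT7 took 13.7% in normal and 9.995% in starved WT, and 14.6% and 11.98% in RA. The SEPT2 group took 33.1% in normal and 34.3% in starved WT, and 30.8% and 29.7% in RA. Starved and normal samples did not overlap for any of the 4 groups in either line, and the SEPT2 share was higher under starvation in WT and lower in RA. Members of this group differed, and the level of Sept5 per kilobase is uncertain because of its shared exons. In WT, Sept1 went from 0.602% to 3.61% of the sum, Sept5 from 16.2% to 17.4% and Sept2 from 16.3% to 13.2%. In RA, Sept1 went from 0.524% to 0.445%, Sept5 from 13.4% to 14.4% and Sept2 from 16.8% to 14.9%. The SEPT6 share was higher under starvation although the level of that group was lower, at 68.3 in normal and 64.9 CPM per kb in starved WT and 65.7 and 58.9 CPM per kb in RA. Without division by exon length, SEPT7 took 21.2% in normal and 16.3% in starved WT and 22.1% and 18.6% in RA. The SEPT2 group then took 25.9% and 25.8% in WT, with overlapping samples, and 24.5% and 23.5% in RA. With 2 samples a group these shares are given without a test.

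**Figure D3:**
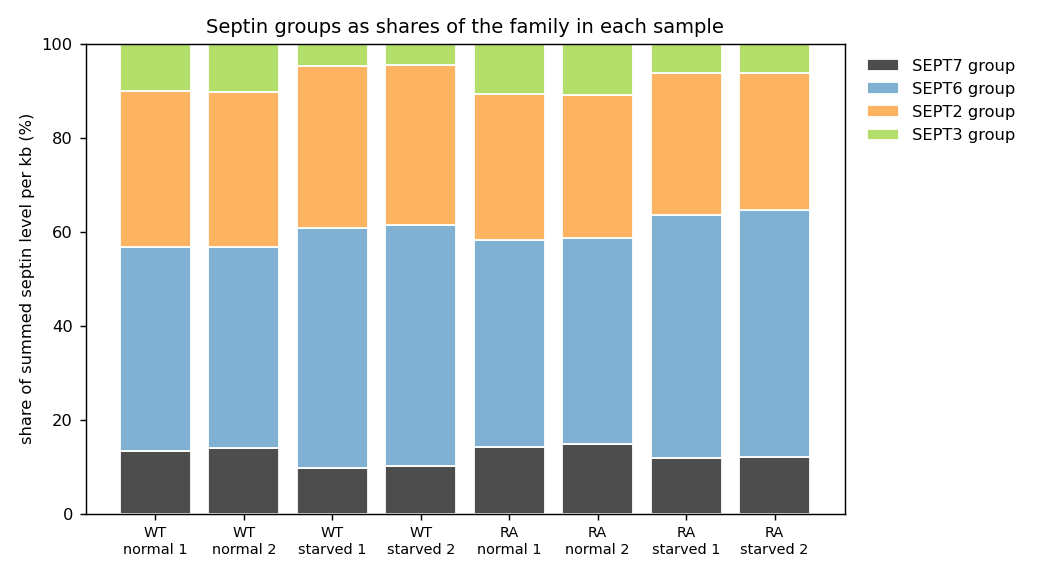
Share (%) of the summed septin level per kb taken by each septin group in each of the 8 samples. The SEPT6 group takes 42.8 to 43.9% in normal medium and 51.1 to 52.5% under starvation, and the SEPT3 group falls from at least 10.1% to at most 6.23%.

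Proteins that work with septins were described by lists, with counts set beside the shares of all tested rows. Of 5 Borg proteins, the Cdc42 effectors that bind septins, 4 were in the table and all 4 fell in starved WT (median -1.14), where 39.2% of all tested rows fell and their median was 0.0049. Cdc42ep2 fell the most, from 38.3 to 1.71 CPM (-3.86 ± 0.088, BH-adjusted p = 1.81e-16), and Cdc42ep1 the least, from 86.3 to 61.7 CPM (-0.48 ± 0.060, BH-adjusted p = 1.32e-06). In RA, where 33.7% of rows fell and 35.0% rose (median 0.013), 3 fell and 1 rose (median -0.58), with Cdc42ep2 again the lowest, from 38.6 to 10.5 CPM, and Cdc42ep3 the highest, from 69.4 to 79.995 CPM (0.20 ± 0.047, BH-adjusted p = 0.00113). All 4 were higher in starved RA than in starved WT (median 0.82), beside 30.8% of rows and a median of -0.0081. All 4 passed in the interaction, with a higher response in RA (median 0.76), beside 24.5% of rows and a median of -0.011. In normal medium 1 of 4, Cdc42ep3, was higher (limma, BH-adjusted p = 0.0366), beside 6.68% of rows and a median of 0.0075, and 0 of 4 were without either normal WT sample, replicate 2 of normal RA or either starved RA sample.

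Of 14 genes of the cleavage furrow and of septin-binding scaffolds, all 14 fell in WT (median -2.28) and all 14 in RA (median -1.66), beside 39.2% and 33.7% of all tested rows and medians of 0.0049 and 0.013. Plk1, a mitotic kinase, fell the most in both, reaching 3.34 CPM from 90.9 CPM in WT (-4.41 ± 0.10, BH-adjusted p = 2.83e-16) and going from 86.6 to 8.01 CPM in RA (-3.29 ± 0.10, BH-adjusted p = 4.07e-14). The GTPase Rhoa fell the least, reaching 272 CPM from 299.5 CPM in WT (-0.14 ± 0.041, BH-adjusted p = 0.0051) and going from 326 to 273 CPM in RA (-0.25 ± 0.041, BH-adjusted p = 3.2e-05). Under starvation 11 of 14 were higher and 1 lower in RA (median 0.37), beside 30.8% and 32.1% of rows, between Rtkn2 (1.38 ± 0.14, BH-adjusted p = 3.04e-07) and Cit (-0.32 ± 0.079, BH-adjusted p = 0.00215). In the interaction 11 of 14 passed with a higher response in RA and 0 with a lower (median 0.51), beside 24.5% and 26.1% of rows. In normal medium 2 were lower, Ect2 and Cit (limma, BH-adjusted p = 0.0419 and 0.0472), beside 2.95% of rows. The count was 0 without either normal WT sample, replicate 2 of normal RA or either starved RA sample, 1 without replicate 1 of normal RA, and 4 with a replicate block, under which Rhoa was higher.

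Of 12 non-muscle actomyosin genes, 10 fell in WT and 0 rose (median -0.48), while 6 fell and 4 rose in RA (median -0.12), beside 39.2% lower and 39.3% higher of all tested rows in WT and 33.7% and 35.0% in RA. In WT the lowest was the tropomyosin Tpm1, from 1324 to 477 CPM (-1.47 ± 0.042, BH-adjusted p = 2.95e-15), and the highest the myosin heavy chain Myh9, at 1175 and 1215 CPM (0.046 ± 0.045, BH-adjusted p = 0.346). In RA they were Tpm3 (-0.90 ± 0.037, BH-adjusted p = 1.03e-12) and the myosin light chain Myl9 (0.67 ± 0.052, BH-adjusted p = 4.42e-09). All 12 were higher in starved RA than in starved WT (median 0.66), beside 30.8% of rows, led by Actb (1.11 ± 0.060, BH-adjusted p = 7.49e-11), and 0 of 12 passed in normal medium, where Myl12b was highest (BH-adjusted p = 0.18) and Myh10 lowest (BH-adjusted p = 0.0839). In the interaction 10 of 12 passed with a higher response in RA and 0 with a lower (median 0.56), beside 24.5% and 26.1% of rows. In normal medium 5 were higher and 1 lower without replicate 1 of normal RA, and with a replicate block Tpm2 was higher and Myh10 lower.

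**Figure D4:**
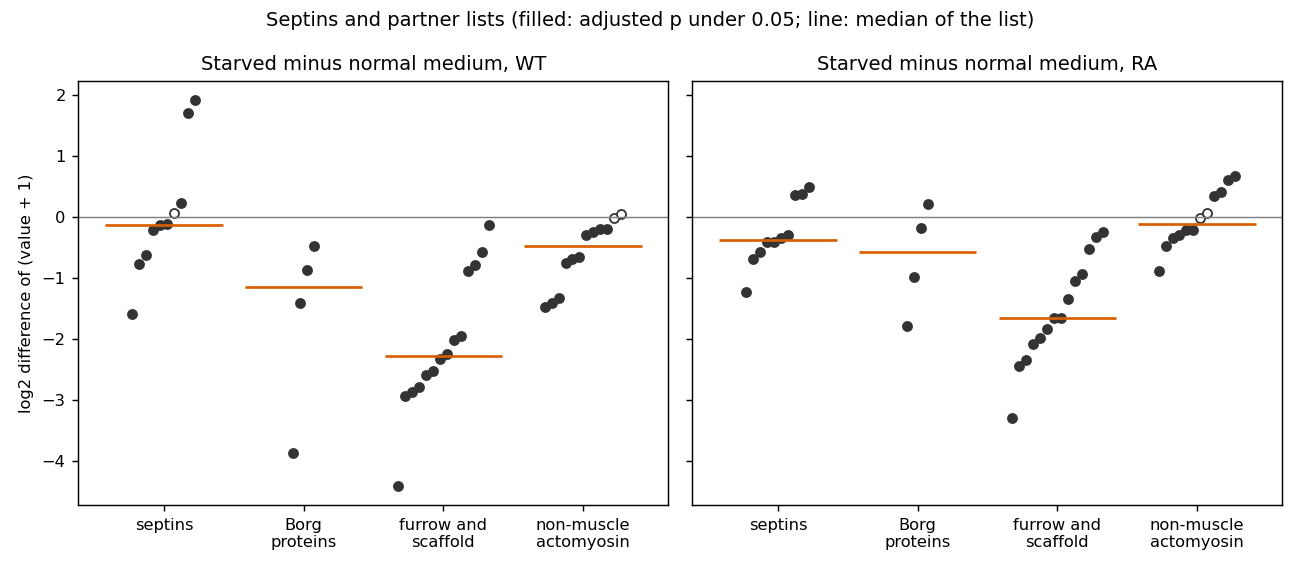
Starvation response (log2 difference of CPM + 1) of septins, Borg proteins, furrow and scaffold genes and actomyosin genes in WT (left) and RA (right), each point a gene, filled where it passed a BH-adjusted p of 0.05 in limma, with a line at the median of each list. The septins lie on both sides of 0 in both lines (medians -0.13 and -0.38 with Sept3), whereas all furrow and scaffold genes lie below 0 (medians -2.28 and -1.66).

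For the 3 septins of at least 10 CPM with the largest difference between responses, the rows of most similar pattern were sought among 10497 rows of at least 10 CPM, by the root mean square difference of log2(CPM + 1) over the 8 samples after centring each row. Among those nearest to Sept8 were Spg11 (0.038) and Cdk5 (0.043), those nearest to Sept10 were Topors (0.034), Smarcc1 (0.037) and Ccar1 (0.038), and those nearest to Sept9 were Ywhah (0.044), Dek (0.047) and Trim59 (0.057).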

How the data were processed

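The authors aligned paired-end polyA RNA-seq reads (TruSeq RNA kit, Illumina HiSeq) to mm9, and the submitters' processing notes name TopHat2 2.0.9, bedtools and edgeR. The counting rule and annotation are not given in the sources used here. The deposited values are signal in the form of CPM of a scaled library (counts per 1000000 reads): the authors' columns summed to 965845 to 1029723, and 100% of values came out as whole reads (tolerance 0.02 read) when divided by the value of 1 read. Of recovered counts from 1 to 9, 78.2 to 80.5% were even. Counts thus mostly came in pairs, so the read numbers given here cannot be taken as numbers of independent fragments. The CPM value of 3 reads covers counting error only, whereas 95% intervals come from the limma fit and measure the spread between samples.

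Groups followed the labels (genotype and media). Rows with at least 1 CPM in at least 2 samples (16232) were tested with limma 3.58.1 (R 4.3.3, eBayes with trend) on log2(value + 1), pseudocount 1, in 1 fit of all 8 samples with 5 contrasts, 2-sided, with Benjamini-Hochberg adjustment over all tested rows and a threshold of 0.05. The scripts were tested on simulated data. All septin rows were named. Sept3 passed the filter only through starved samples, so its differences are a description. For lists, the members with the highest and the lowest difference of a contrast were named. Members and lists were chosen with earlier results of these data known. Alternatives were other pseudocounts, filters and scalings, the compared groups alone, no trend, a stricter threshold, a replicate block, leaving out each sample, and edgeR 4.0.16 and DESeq2 1.42.0 on recovered reads. On recovered reads edgeR called 12705 rows for starvation in WT, 11114 in RA, 1555 for RA against WT in normal medium, 10194 under starvation and 8096 for the interaction. The fit on halved reads was added after seeing the data. Gene positions and exon lengths came from GENCODE M21 (GRCm38) and promoters from RefSeq (GRCm38.p6), matched by symbol, and were not mixed with mm9 coordinates. Of the rows of similar pattern, 1 is not reported here.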

Additional observations from a re-analysis of the deposited data

Results flagged for a closer look

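The starvation response differed between Pontin WT and Pontin RA MEFs for 6 of the 9 septins other than Sept3. This was by the interaction of genotype and medium (limma, BH-adjusted p under 0.05, differences on the log2(CPM + 1) scale). The difference, RA minus WT, was -2.32 for Sept1, -0.48 for Sept10 and -0.22 for Sept11, and 0.48 for Sept8, 0.36 for Sept9 and 0.25 for Sept6. Sept3 passed the filter on low values only through starved samples, so its difference of -1.32 is given without a test. Sept1 rose in WT and fell in RA, and Sept8 fell in WT and rose in RA. Among the other genes named, the difference was 2.07 for Cdc42ep2 (-3.86 in WT and -1.79 in RA), 1.47 for Rtkn2 (-2.53 in WT and -1.06 in RA), 1.03 for Actb (-1.33 in WT and -0.30 in RA) and 0.30 for Cdc42ep1 (-0.48 in WT and -0.18 in RA). Of all tested rows, 50.6% passed the same test, and cell line and Pontin form cannot be told apart.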

How the results depend on the processing

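With Sept3 included, the number of septins called stayed at 7 to 9 of 10 for starvation in WT, 9 to 10 in RA, 8 to 9 for starved RA against WT and 6 to 8 for the interaction over all alternatives, and leaving out 1 sample gave 7 to 9, 9 to 10, 8 to 9 and 6 to 7. Sept3 entered only through starved samples, so these counts describe how stable the calls were and are no test. In the main fit 78.6%, 68.7%, 62.9% and 50.6% of all tested rows were called in these comparisons, so high counts are not particular to septins. For RA against WT in normal medium the 1 call became 2 after scaling to total reads, which added Sept8 (-0.16, limma, BH-adjusted p = 0.0296), and 2 after quantile normalization, which added Sept11 (-0.13, BH-adjusted p = 0.0474). Of 1084 septin values under alternatives, those of Sept3 included, 1020 kept direction and side of the threshold, 34 lost it, 4 gained it and 26 changed sign.

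The sign changes all concerned differences that did not pass the test. In normal medium, Sept7 was at -0.0083 with median-ratio scaling, -0.040 with total reads, -0.028 with quantile normalization, -0.00082 with edgeR, -0.0080 with DESeq2 and -0.00049 with edgeR on halved reads (chosen after seeing the data), and Sept9 was at -0.0064, -0.038 and -0.024 with the 3 scalings and -0.0064 with DESeq2. For starved RA against WT, Sept2 was at 0.022 with total reads, 0.011 with quantile normalization, 0.020 with edgeR and 0.020 on halved reads. Sept10 in starved WT was at -0.0071 with total reads. Without 1 sample, values ran from -0.019 to 0.034 for Sept7, from -0.0011 to 0.020 for Sept9, from -0.087 to 0.013 for Sept2 and from -0.049 to 0.15 for Sept6 in normal medium, from -0.051 to 0.047 for Sept2 under starvation and from -0.015 to 0.085 for the Sept2 interaction. The cause was not tested.

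Deviations of same-numbered replicates correlated at -0.0076 to 0.16 between groups. With 2 samples a group this cannot show whether the numbers pair the samples. Over all tested rows, a replicate block took the calls for RA against WT in normal medium from 1563 to 2059. Among the 9 septins other than Sept3, limma with a replicate block made the same number of calls in each comparison (8, 9, 1, 8 and 6). In edgeR the replicate block gave -0.00096 for Sept7 in normal medium and 0.019 for Sept2 under starvation. The interaction of Sept6 was lost with no filter (BH-adjusted p = 0.106), quantile normalization (0.14), no trend (0.0836) and DESeq2 (0.0791), and that of Sept7 was gained with total reads (0.0147) and quantile normalization (0.03). In normal medium the lists ranged over the alternatives from 0 to 1 Borg genes higher, 0 to 5 furrow genes lower and 0 to 5 actomyosin genes higher. The higher Sept7 in starved RA was lost with no filter (0.0703), median-ratio scaling (0.0763), no trend (0.135) and DESeq2 (0.101), the rise of Sept6 in WT with total reads (0.0525), the fall of Sept11 in WT with no trend (0.0592) and the Sept11 interaction with quantile normalization (0.0774). Sept3 gave no value under the filter at 10 CPM, and its 16 to 32 reads in normal medium limit the precision of its fold.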
